A study of Rattus norvegicus with 59 samples.

Results

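The fatty acid synthesis enzymes were followed in 59 RNA-seq libraries of INS-1E, an insulin-secreting line derived from a rat insulinoma and used as a β-cell model. The set was made of 10 gene symbols, Acly, Acss2, Acaca, Acacb, Fasn, Scd, Elovl5, Elovl6, Fads1 and Srebf1, and its members were the rows of the deposited table that carry these symbols. Of the 10 symbols, 9 had a row, with 11 rows among the 18331 transcript rows (17029 symbols) of the table, and 10 of these rows, from 8 genes, passed the filter for testing. Srebf1, which encodes the lipogenic transcription factor SREBP-1, was not analysed here. Cells of the HG + drugs group (n = 19) were kept in 20 mM glucose for 72 h and received 3 drugs over the last 48 h, namely exendin-4 at 50 nM with metformin and sodium salicylate at 250 μM each. Cells of the HG group (n = 20) had the same glucose for 72 h without drugs, and cells of the NG group (n = 20) had 11.1 mM glucose for 72 h. All libraries came from a single tumour-derived cell line, and the study describes the replicates as independent experiments. The HG + drugs library numbered 16 was not analysed. Levels are FPKM, in which fragments are scaled by transcript length and by the mapped total of the library.

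The cytosolic synthesis of fatty acids uses acetyl-CoA that ATP citrate lyase (Acly) releases from exported citrate or that Acss2 makes from acetate. Acetyl-CoA carboxylase (Acaca, and Acacb at the mitochondrial surface) converts it to malonyl-CoA, from which fatty acid synthase (Fasn) builds palmitate, and elongases and desaturases then lengthen the chain and insert double bonds. In β-cells the pathway is known as a route for carbon from excess glucose, and malonyl-CoA also restrains the entry of fatty acids into mitochondria.

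Before the results, a few properties of the libraries bear on these transcripts. The spacing of low FPKM values gave a depth of 6.95 to 10.3 M reads per library (median 8.59), as 87.6% of 107062 low values fell within 0.05 of a whole read count. Of 10 β-cell markers, 9 were in the table and all 9 exceeded 1 FPKM on average in every group. Their summed level was 59015 to 103033 FPKM in HG + drugs, 43683 to 84613 FPKM in HG and 75098 to 119035 FPKM in NG, most of it from Ins1 and Ins2, so that the insulin transcripts moved with the groups. The α-cell hormone gene Gcg was also expressed, with means of 1207 FPKM in HG + drugs, 1164 FPKM in HG and 947 FPKM in NG, while Irx2 was listed at 0 in every library. Of the markers of tissues known for fatty acid synthesis, the adipocyte genes Adipoq and Plin1 were at 0.263 FPKM or less in every library, Lep was listed at 0, and the 3 hepatocyte markers (Alb, Apoa1 and Ttr) summed to at most 1.65 FPKM, whereas the adipocyte gene Cidec was present at a few FPKM. The HG + drugs library of number 13 stood apart for the synthesis enzymes, as described with the drug comparison. Values without it and the HG library of the same number are given for Fads1, Fasn, Scd and Scd1, where a call changed. Over the members and the other named genes, leaving both out lost 4 calls and gained 3, and the other lost calls are not listed here.

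Promoter sequence is shown for the members of which RefSeq (build GRCr8) gave a start region, to set the changes beside the DNA ahead of that start. All members with rows were matched to RefSeq genes. A start region was given for Acly, Acss2, Scd, Elovl5, Fads1 and Acacb, and none for Acaca, Fasn and Elovl6. The row named Scd carries NM_031841, which RefSeq names Scd2, and the row named Scd1 carries NM_139192, which RefSeq names Scd, so both stearoyl-CoA desaturase rows are described. Each line gives the 150 bases ahead of the start that the RefSeq promoter table uses, 5′ to 3′ on the strand of the gene. Lines are given for the 3 genes with the clearest change among those with a start region (Acly, Acss2 and Scd). They are also given for 2 with small changes (Elovl5 and Fads1). RefSeq genes can have several starts, and against the annotated span of the whole gene the windows of Acly and Acss2 lie inside it, that of Fads1 runs 87 bases past its first base, and those of Scd and Elovl5 lie ahead of it. Capitals mark CCAAT or its reverse complement ATTGG, the letters of the CCAAT box, which the factor NF-Y binds.
Acly, chr10:85963632-85963781, minus strand: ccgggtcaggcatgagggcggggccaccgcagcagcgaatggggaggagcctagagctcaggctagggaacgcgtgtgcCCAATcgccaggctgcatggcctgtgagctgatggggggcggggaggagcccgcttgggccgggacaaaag
Acss2, chr3:164464553-164464702, plus strand: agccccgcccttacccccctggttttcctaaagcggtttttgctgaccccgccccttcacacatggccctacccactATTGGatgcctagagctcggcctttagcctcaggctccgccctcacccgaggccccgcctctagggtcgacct
Scd (Scd2 in RefSeq), chr1:253118227-253118376, plus strand: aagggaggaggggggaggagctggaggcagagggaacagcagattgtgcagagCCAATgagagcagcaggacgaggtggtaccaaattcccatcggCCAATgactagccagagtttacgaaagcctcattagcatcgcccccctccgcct
Elovl5, chr8:87671014-87671163, plus strand: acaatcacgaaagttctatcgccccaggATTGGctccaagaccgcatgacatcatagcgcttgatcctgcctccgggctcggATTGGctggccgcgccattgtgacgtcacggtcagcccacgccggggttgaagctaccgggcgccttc
Fads1, chr1:216252542-216252691, plus strand: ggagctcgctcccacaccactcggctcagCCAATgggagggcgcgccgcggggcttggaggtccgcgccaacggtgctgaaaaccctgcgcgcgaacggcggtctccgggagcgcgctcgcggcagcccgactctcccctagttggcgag
Within 250 bases before and 50 bases after the start, on both strands, CCAAT was found in 6 of 6 member promoters and in 37.5% of all 33469 promoters. The GC box letters GGGCGG were found in 3 of 6 member promoters (Acly, Acss2 and Fads1) and in 33.1% of all. The E-box CACGTG was found in 1 of 6 (Elovl5) and in 6.42% of all, and the sterol regulatory element letters TCACNCCAC were found in 0 of 6 and in 1.12% of all. These 4 motifs do not contain one another. A CCAAT match stood 71 bases ahead of the start in Acly, 73 in Acss2, and 97 and 54 in Scd, and the genes with small changes held it too, at 121 bases in Fads1 and at 122 and 68 in Elovl5. Matches were present in genes with large and with small changes, and a match describes the letters only.

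All 10 tested rows of the synthesis enzymes rose with HG compared to NG (limma, adjusted p under 0.05). Over all 10660 transcripts tested, 18.2% rose and 22.0% fell. The rise was largest for Acaca and was also clear for Acss2, Acly and Scd. As a ratio of mean FPKM it was 1.23-fold for Fasn and for the summed Elovl6 rows, and it was small for Elovl5 and Fads1. The median log2 fold change over the 10 rows was 0.40, compared to -0.02 over all transcripts tested. With drugs, Acaca, Acss2 and both Acly transcripts were lower than in HG, and the mean of every enzyme in HG + drugs stayed above its NG mean. As these are bulk samples, more RNA per cell and more cells that express a gene cannot be told apart.

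**Figure D1:**
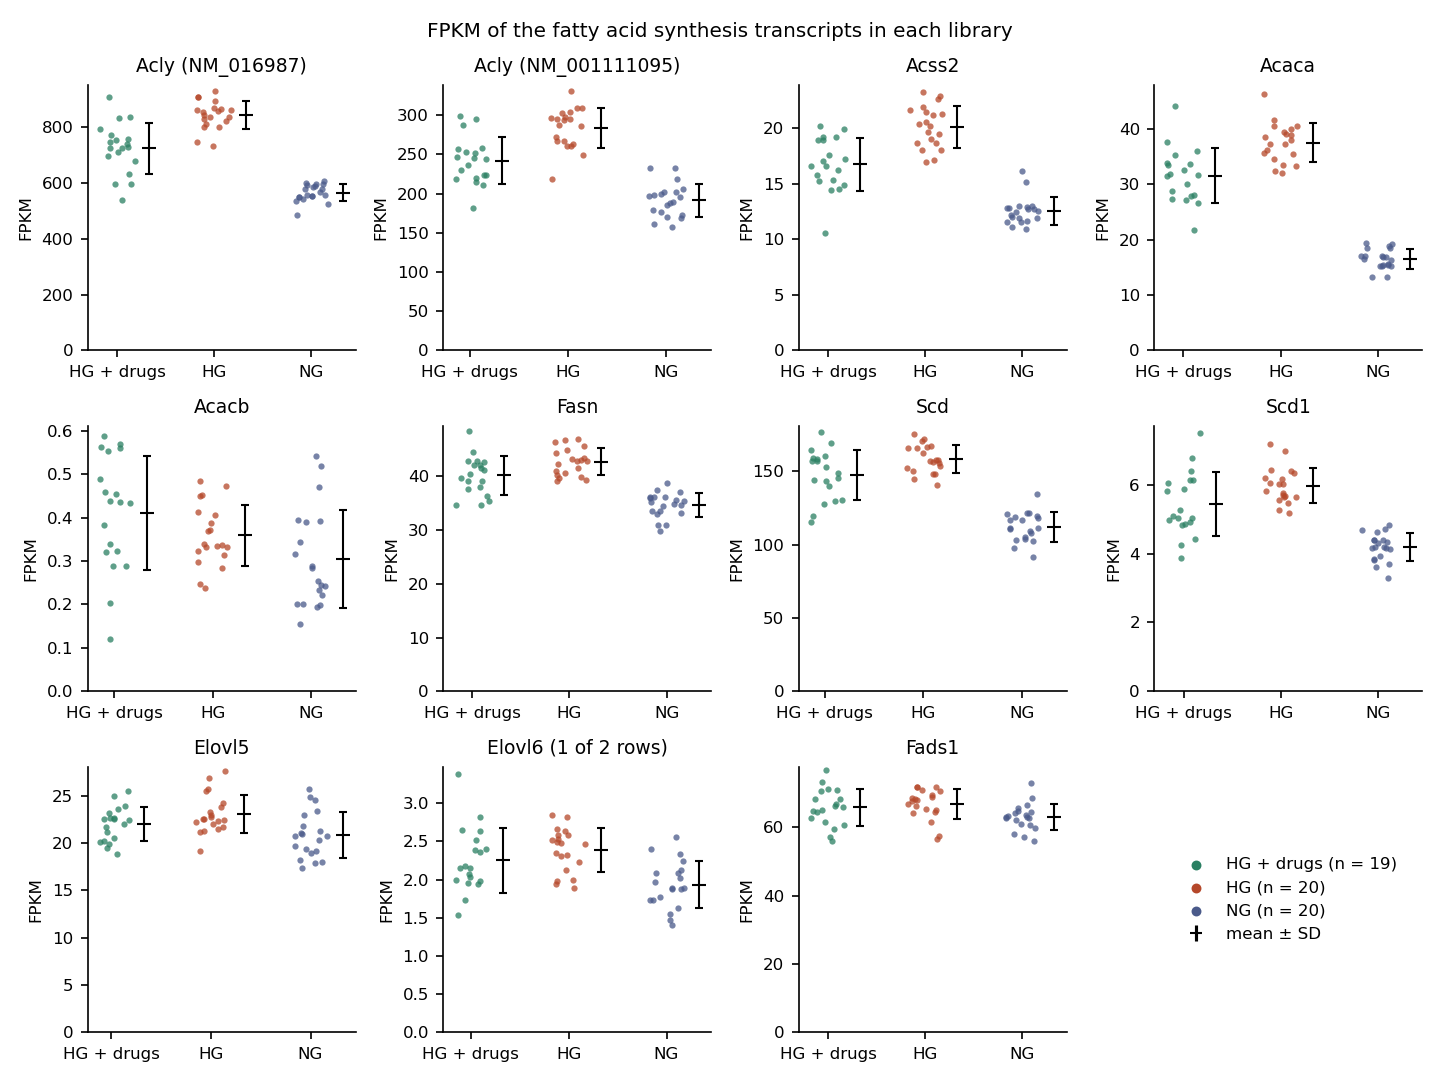
FPKM of each synthesis transcript and of Scd1 (vertical axes, linear from 0) in every library of HG + drugs, HG and NG, with the mean ± SD beside the points. Acaca shows the widest separation, with HG libraries at 32.1 to 46.4 FPKM and NG libraries at 13.2 to 19.3 FPKM, while the Fads1, Elovl5 and Elovl6 groups overlap.

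The enzymes differed in level by several orders of magnitude on the FPKM scale, which is per length of transcript. In HG, the summed Acly rows had a mean of 1127 FPKM, followed by Scd (158), Fads1 (66.8), Fasn (42.7), Acaca (37.5), Elovl5 (23.1), Acss2 (20.1), the summed Elovl6 rows (4.70) and Acacb (0.359). In NG the order was Acly (757 FPKM), Scd (112), Fads1 (63.0), Fasn (34.6), Elovl5 (20.8), Acaca (16.5), Acss2 (12.5), Elovl6 (3.82) and Acacb (0.304). Acaca therefore stood below Elovl5 in NG and above it in HG. The HG ranges of Fasn and Acaca overlapped, as did those of Elovl5 and Acss2, and the NG ranges of Elovl5 and Acaca and those of Acaca and Acss2 overlapped, so these neighbours were not separated. The Acly rows were the only members above 200 FPKM on average in HG. At the estimated depth, the median library held about 29782 reads of the longer Acly transcript, 2170 of Acaca and 3371 of Fasn in HG, but 48.4 of an Elovl6 row and 20.9 of Acacb, so the last 2 were measured least precisely.

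Acly splits citrate into acetyl-CoA and oxaloacetate in the cytosol and was the most abundant enzyme of the set. Its longer transcript NM_016987 (4327 bases) was at 734 to 931 FPKM in HG (median 849) against 484 to 607 FPKM in NG (median 562). All 20 HG libraries lay above all 20 NG libraries. The log2 fold change was 0.58 (adjusted p = 2.0e-19, SE 0.04), or 1.49-fold of the mean FPKM. The shorter transcript NM_001111095 (4297 bases) was at 219 to 331 FPKM in HG (median 291) against 158 to 233 FPKM in NG (median 192). Here 19 of 20 HG libraries exceeded the highest NG library, and the log2 fold change was 0.56 (adjusted p = 3.6e-15, SE 0.05). The software divides shared reads between these isoforms, and the longer form made up 74.9% ± 2.37 of Acly in HG + drugs (SD over 19 libraries), 74.9% ± 1.65 in HG and 74.7% ± 2.09 in NG (SD over 20 libraries each). The isoforms thus rose in nearly the same proportion.

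Acss2, which makes acetyl-CoA from acetate in the cytosol and nucleus, was at 16.9 to 23.3 FPKM in HG (median 20.3) against 10.9 to 16.1 FPKM in NG (median 12.5). The groups did not overlap. The log2 fold change was 0.64 (adjusted p = 3.9e-17, SE 0.05), or 1.60-fold. It ranked 136 from the highest of 10660 transcripts in this comparison. The mitochondrial and cytosolic enzymes that feed the same pools are described with the neighbouring genes.

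Acaca, the cytosolic acetyl-CoA carboxylase that commits carbon to fatty acid synthesis, had the largest rise of the set. It was at 32.1 to 46.4 FPKM in HG (median 37.6) against 13.2 to 19.3 FPKM in NG (median 16.7). Every HG library was above every NG library, with a wide gap between the groups. The log2 fold change was 1.14 (adjusted p = 9.0e-27, SE 0.05), or 2.27-fold of the mean FPKM, and Acaca ranked 28 from the highest of 10660 transcripts. Acacb, the carboxylase of the mitochondrial surface, was hardly expressed. It was at 0.121 to 0.588 FPKM in HG + drugs (median 0.436), 0.238 to 0.484 FPKM in HG (median 0.339) and 0.154 to 0.542 FPKM in NG (median 0.269), which put it below the filter of a mean of 1 FPKM. All 3 groups overlapped. In a fit without the filter, its log2 fold change was 0.06 (adjusted p = 0.20, SE 0.04) with HG, 0.05 (adjusted p = 0.54, SE 0.04) for HG + drugs against HG and 0.11 (adjusted p = 0.021, SE 0.04) for HG + drugs against NG. The last of these passed the threshold only with the filter removed and rests on about 28.0 reads in the median library of HG + drugs and 15.0 in NG.

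Fasn, the multifunctional synthase that makes palmitate, had a smaller fold change than the enzymes that supply it. It was at 39.1 to 46.8 FPKM in HG (median 42.8) against 29.9 to 38.6 FPKM in NG (median 35.1). The lowest HG library was just above the highest NG library, so the groups did not overlap. The log2 fold change was 0.29 (adjusted p = 1.9e-11, SE 0.03), or 1.23-fold.

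The row named Scd, a stearoyl-CoA desaturase that places the first double bond in saturated acyl chains, was at 140 to 175 FPKM in HG (median 157) against 91.7 to 135 FPKM in NG (median 111). No HG library fell within the NG range. The log2 fold change was 0.50 (adjusted p = 6.2e-16, SE 0.04), or 1.41-fold. The row named Scd1 was far lower, at 5.18 to 7.17 FPKM in HG (median 5.91) against 3.29 to 4.83 FPKM in NG (median 4.18), again without overlap, with a log2 fold change of 0.43 (adjusted p = 1.5e-11, SE 0.05). As desaturase genes are similar in sequence, reads can be divided between them.

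Among the enzymes that lengthen chains and desaturate polyunsaturated fatty acids, Elovl5 and Fads1 had the smallest fold changes of the tested rows. Elovl6, which extends palmitate to stearate, has 2 rows of the same accession with nearly equal values, and their sum was 3.69 to 5.54 FPKM in HG (median 4.87) against 2.81 to 5.06 FPKM in NG (median 3.75). The groups overlapped. For the sum, the log2 fold change was 0.25 (adjusted p = 2.9e-04, SE 0.06), on log2(FPKM + 1), which compresses the changes of such low transcripts. The mean of the sum rose 1.23-fold, and with a pseudocount of 0.1 the log2 fold change was 0.30 for the row NM_134383 and 0.30 for Fasn, so Elovl6 did not stand below Fasn. Elovl5, which extends polyunsaturated chains, was at 19.2 to 27.6 FPKM in HG (median 22.5) against 17.4 to 25.6 FPKM in NG (median 20.7). The ranges overlapped widely, although 19 of 20 HG libraries were above the NG median, and the log2 fold change was 0.14 (adjusted p = 0.0038, SE 0.04). Fads1, the delta-5 desaturase, was at 56.6 to 71.8 FPKM in HG (median 67.8) against 56.1 to 73.0 FPKM in NG (median 63.0). No HG library exceeded the highest NG library. Its log2 fold change was 0.08 (adjusted p = 0.036, SE 0.03), and the call was lost without the number 13 libraries of HG + drugs and HG (adjusted p = 0.051), with quantile normalization (0.19) and with FPKM rescaled without Ins1 and Ins2 (0.41).

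Across the set, 5 rows (Acaca, the longer Acly transcript, Acss2, Fasn and Scd) had all HG libraries above all NG libraries, as did Scd1, which was the case for 1.26% of the 10660 transcripts tested. The labels do not give the 4 sequencing pools of the study, so sets of 15 consecutive sample numbers were compared. The rise of Acaca was 1.08 to 1.17 in these sets, that of Acss2 0.62 to 0.66, that of the longer Acly transcript 0.53 to 0.61, that of Scd 0.47 to 0.53 and that of Fasn 0.24 to 0.32, all as log2 fold changes. Each set thus gave the direction found over all libraries. The insulin transcripts, which were lower with HG, enter the library total behind FPKM, and with the total taken without them 9 of 10 rows still rose.

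**Figure D2:**
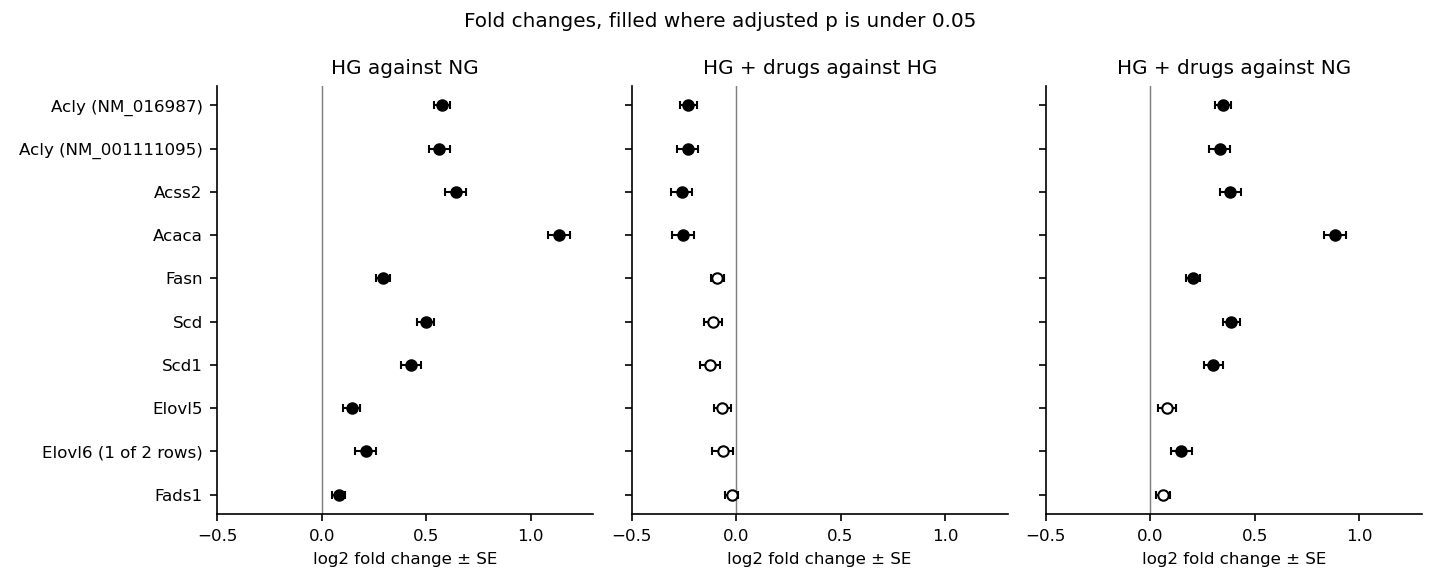
Log2 fold change ± SE (horizontal axes, limma on log2(FPKM + 1)) of each tested transcript and of Scd1 in the 3 comparisons (HG with NG on the left, HG + drugs with HG in the middle and HG + drugs with NG on the right), with filled points at an adjusted p under 0.05. With HG all points are filled, led by Acaca at 1.14, and in HG + drugs against HG the filled points are Acaca, Acss2 and both Acly transcripts, between -0.23 and -0.26.

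With drugs, 4 of the 10 rows, from 3 genes, were called lower than in HG by limma and none was called higher (6 lower and 0 higher at an unadjusted p under 0.05), while 4.48% of all transcripts tested fell and 4.17% rose. Acaca was at 21.8 to 44.1 FPKM in HG + drugs (median 31.8) against 32.1 to 46.4 FPKM in HG. The groups overlapped, but 11 of 19 HG + drugs libraries were below the lowest HG library. The log2 fold change was -0.25 (adjusted p = 7.2e-04, SE 0.05). Acss2 was at 10.5 to 20.2 FPKM in HG + drugs (median 16.6) against 16.9 to 23.3 FPKM in HG. None of its 19 HG + drugs libraries reached the HG median. Its log2 fold change was -0.26 (adjusted p = 2.5e-04, SE 0.05). The longer Acly transcript was at 537 to 908 FPKM in HG + drugs (median 728) against 734 to 931 FPKM in HG, a log2 fold change of -0.23 (adjusted p = 4.9e-05, SE 0.04), and the shorter one was at 182 to 299 FPKM in HG + drugs (median 244) against 219 to 331 FPKM in HG, a log2 fold change of -0.23 (adjusted p = 9.5e-04, SE 0.05). In the longer transcript, 18 of 19 HG + drugs libraries were below the HG median.

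Fasn and the desaturases did not pass the threshold with drugs in this fit, though Fasn and both stearoyl-CoA desaturase rows did in 2 of the alternatives. Fasn was at 34.7 to 48.5 FPKM in HG + drugs (median 40.4) against 39.1 to 46.8 FPKM in HG, with a log2 fold change of -0.09 (adjusted p = 0.074, SE 0.03). Scd was at 115 to 177 FPKM in HG + drugs (median 148) against 140 to 175 FPKM in HG, with a log2 fold change of -0.11 (adjusted p = 0.086, SE 0.04). Although neither passed the threshold, 16 of 19 HG + drugs libraries for Fasn and 13 of 19 for Scd were below the HG median. Both passed without the number 13 libraries of HG + drugs and HG (adjusted p = 0.030 for Fasn and 0.048 for Scd). Scd1 had a log2 fold change of -0.13 (adjusted p = 0.084, SE 0.05, and 0.034 without these libraries). Number 13 was the highest HG + drugs library in Fasn, Scd and Scd1 and was picked from these same values. No fit left out a library at the low end, such as number 1, so this alternative leans toward a larger fall. With the replicate number as a block, the adjusted p was 0.018 for Fasn, 0.0071 for Scd and 0.0085 for Scd1, and 6 of the 10 rows were called lower in place of 4. Elovl5 was at 18.8 to 25.5 FPKM in HG + drugs (median 22.4), summed Elovl6 at 3.01 to 6.56 FPKM (median 4.20) and Fads1 at 56.1 to 76.8 FPKM (median 66.0). Their ranges overlapped those of HG, with log2 fold changes of -0.07 (adjusted p = 0.38, SE 0.04), -0.08 (adjusted p = 0.47, SE 0.06) and -0.02 (adjusted p = 0.77, SE 0.03). A difference between the enzymes that fell and those that did not pass was not tested.

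In 9 of the 10 tested rows the coefficient of variation was larger in HG + drugs than in HG, and in Elovl5 it was smaller (8.32% in HG + drugs and 8.86% in HG). The 9 include both of the nearly equal Elovl6 rows. The share over all transcripts tested was not computed, so the count cannot be read as particular to these enzymes. The coefficient of variation of Acaca was 15.6% in HG + drugs and 9.37% in HG, that of the longer Acly transcript 12.5% in HG + drugs and 5.91% in HG, that of Acss2 14.3% in HG + drugs and 9.37% in HG, that of Scd 11.5% in HG + drugs and 6.08% in HG, and that of Fasn 8.88% in HG + drugs and 5.92% in HG. The difference in spread was not tested. Of the 19 HG + drugs libraries, 12 had all 5 of these genes below the HG mean and 4 had 4 of the 5 below it. As Acaca, Acss2 and Acly were called lower in these same libraries, the count is a description and no separate evidence. It was not computed for other transcripts. The library of number 1 was lowest in Acaca (21.8 FPKM), Acss2 (10.5 FPKM) and the longer Acly transcript (537 FPKM). That of number 13 was the highest of its group in Acaca (44.1 FPKM), the longer Acly transcript (908 FPKM), Fasn (48.5 FPKM), Scd (177 FPKM) and Scd1 (7.50 FPKM). For Fasn, Scd and Scd1 it was also above every HG library. In sets of consecutive sample numbers, the difference between HG + drugs and HG was largest in the first set, with a log2 fold change of -0.43 for Acaca, against -0.16 to -0.25 in the other 3, and of -0.38 for the longer Acly transcript, against -0.15 to -0.19. The direction was the same in all 4 sets for both and for Acss2 (-0.35 to -0.19). The shorter Acly transcript was less even, at -0.31, -0.29, -0.05 and -0.27 in the sets in order. Scd was at -0.25 in the first set and at -0.03, -0.10 and -0.04 in the later ones, and Fasn ran from -0.15 in the first to -0.02 in the last.

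**Figure D3:**
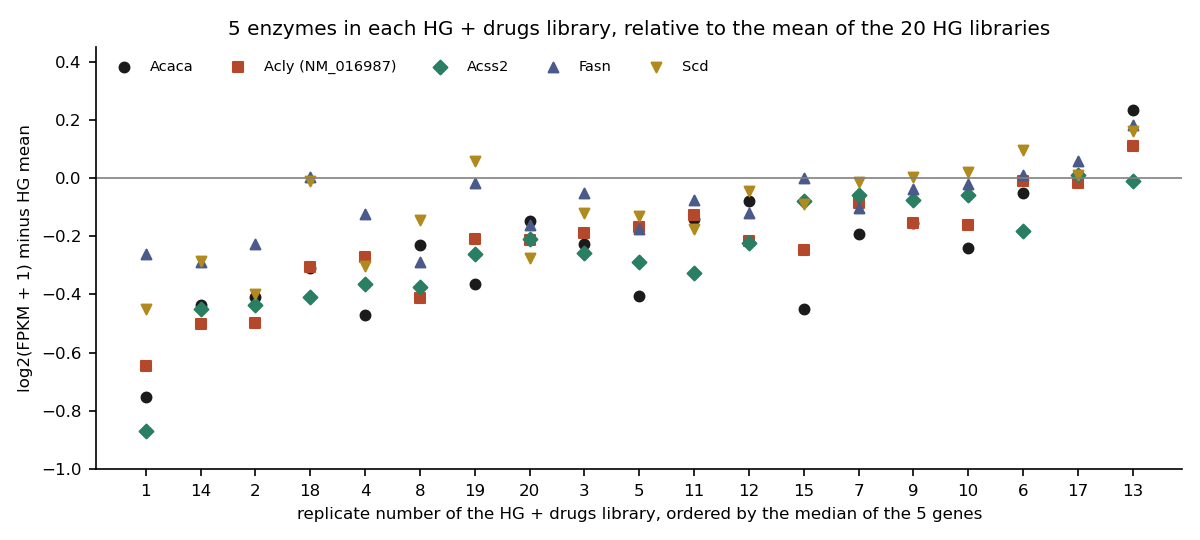
Level of Acaca, the longer Acly transcript, Acss2, Fasn and Scd in each of the 19 HG + drugs libraries (horizontal axis, replicate numbers ordered by the median of the 5 genes), as log2(FPKM + 1) minus the mean of the 20 HG libraries (vertical axis). Most points lie below 0, from number 1 with Acss2 at -0.87 and Acaca at -0.75 to number 13 with Acaca at 0.23.

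Within the HG + drugs group these 5 enzymes varied together. Over the 10 pairs, Pearson's r on log2(FPKM + 1) across libraries was 0.65 to 0.86 in HG + drugs (median 0.79, n = 19), 0.16 to 0.56 in HG (median 0.48, n = 20) and 0.03 to 0.56 in NG (median 0.36, n = 20). Without the libraries of number 13, the range in HG + drugs was 0.50 to 0.85 (median 0.75). No r was computed without number 1, the lowest library in Acaca, Acss2 and the longer Acly transcript. The 5 were picked for clear changes in these data, and pairs of other transcripts were not computed for comparison. These values are a description, since the enzymes share library and depth, and the sets of consecutive numbers hold too few libraries of a group (4 or 5) to give r within them.

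Compared to NG, 8 of the 10 rows were higher in HG + drugs at an adjusted p under 0.05 and none was lower (also 8 and 0 at an unadjusted p under 0.05 in limma), while 12.7% of all transcripts tested were higher and 14.6% were lower. Both drug comparisons and the comparison of HG with NG share libraries, so their values are given side by side. Acaca was 0.88 higher than in NG (adjusted p = 6.2e-21, SE 0.05) as a log2 fold change, and its lowest HG + drugs library (21.8 FPKM) was above its highest NG library (19.3 FPKM), a separation found in 0.159% of all transcripts tested. Scd was 0.39 higher (adjusted p = 3.0e-11, SE 0.04), Acss2 0.38 (adjusted p = 1.0e-08, SE 0.05), the longer Acly transcript 0.35 (adjusted p = 1.9e-10, SE 0.04) and Fasn 0.20 (adjusted p = 1.3e-06, SE 0.03). Summed Elovl6 was 0.17 higher (adjusted p = 0.019, SE 0.06), but neither Elovl6 row passed with FPKM rescaled without Ins1 and Ins2 (adjusted p = 0.074 and 0.087). Elovl5 (0.08, SE 0.04) and Fads1 (0.06, SE 0.03) did not pass, each with an adjusted p of 0.17. Relative to the log2 difference between HG and NG, the mean of HG + drugs lay below HG by 22.3% for Acaca, 22.1% for Scd, 30.4% for Fasn, 39.5% for the longer Acly transcript and 40.5% for Acss2. These shares rest on the same HG libraries on both sides and were not tested against each other.

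The genes around the pathway were counted in 7 lists, to be read against the shares over all transcripts tested (18.2% higher and 22.0% lower with HG, 4.17% higher and 4.48% lower with drugs compared to HG). Of 4 tested genes that supply cytosolic acetyl-CoA and NADPH, 2 rose with HG and none fell (0 lower at an unadjusted p under 0.05), and with drugs compared to HG 1 fell (limma, with 1 higher at an unadjusted p under 0.05). Me1, the malic enzyme that yields NADPH, averaged 60.2 ± 3.56 FPKM in HG and 50.3 ± 4.25 FPKM in NG (SD, n = 20 each), a log2 fold change of 0.26 (adjusted p = 1.4e-09, SE 0.03). The mitochondrial citrate carrier Slc25a1 rose by 0.17 (adjusted p = 2.7e-06, SE 0.03) with HG and fell with drugs, with a log2 fold change of -0.11 (adjusted p = 0.0080, SE 0.03) against HG, as Acly did. Me1 had a log2 fold change of 0.03 with drugs compared to HG (adjusted p = 0.69).

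Among 11 other desaturation and elongation genes, 2 rose and 2 fell with HG (18.2% each way, close to the 18.2% and 22.0% over all transcripts), and with drugs compared to HG 2 fell, against 4.48% over all transcripts. At an unadjusted p under 0.05 in limma, 0 were higher and 5 lower with drugs. Hsd17b12, the ketoacyl-CoA reductase of the elongation cycle, rose by 0.36 (adjusted p = 4.6e-14, SE 0.03) and was lower with drugs than in HG, with a log2 fold change of -0.14 (adjusted p = 0.0024, SE 0.03). Fads2, the delta-6 desaturase, averaged 97.9 FPKM in HG + drugs, 108 FPKM in HG and 100.4 FPKM in NG. It rose with HG compared to NG (0.10, SE 0.03, adjusted p = 0.0026) and was lower in HG + drugs than in HG (-0.14, SE 0.03, adjusted p = 6.3e-04). Fads3 (-0.12, SE 0.05, adjusted p = 0.038) and Ptplad1 (-0.08, SE 0.02, adjusted p = 0.0013), a dehydratase of the elongation cycle, were lower in HG than in NG. In HG + drugs compared to NG, Fads3 was lower (-0.23, SE 0.05, adjusted p = 1.2e-04) and Hsd17b12 was higher (0.21, SE 0.03, adjusted p = 8.8e-07).

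Of 17 tested genes of lipogenic transcription factors and of SREBP processing, 4 rose and 3 fell with HG (23.5% and 17.6%). These shares were near those over all transcripts (18.2% and 22.0%). With drugs compared to HG, 1 rose and none fell (3 lower at an unadjusted p under 0.05 in limma). Insig1, which retains the SREBP complex in the endoplasmic reticulum and is itself a target of SREBP, had a log2 fold change of 0.38 (adjusted p = 5.0e-06, SE 0.07) with HG. Srebf2, the cholesterol-directed SREBP gene, rose by 0.14 (adjusted p = 5.5e-04, SE 0.03). Mlx, the partner of ChREBP, was lower in HG than in NG (-0.24, SE 0.04, adjusted p = 3.6e-07), as was Nr1h2, which encodes the oxysterol receptor LXRβ (-0.19, SE 0.04, adjusted p = 3.2e-05). Mlx was the 1 that rose with drugs compared to HG (0.12, SE 0.04, adjusted p = 0.045). It was still lower in HG + drugs than in NG (-0.13, SE 0.04, adjusted p = 0.0098). Mlxipl, the gene of the glucose-responsive factor ChREBP, had a log2 fold change of 0.13 (adjusted p = 0.13, SE 0.07), and Scap, the escort of SREBP, 0.06 (adjusted p = 0.12, SE 0.03).

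Of 11 regulators of the carboxylase and of acyl carrier modification, 3 rose with HG (27.3%, against 18.2% over all transcripts) and none fell (1 lower at an unadjusted p under 0.05 in limma), and none changed with drugs compared to HG, also at an unadjusted p. Mid1ip1, which promotes polymerization and activity of acetyl-CoA carboxylase, averaged 213 FPKM in HG and 160 FPKM in NG, a log2 fold change of 0.42 (adjusted p = 2.4e-09, SE 0.05). Its paralog Thrsp was not tested because its level was below the filter. Prkag2 and Brca1 were the other 2, at 0.11 each, and neither passed with FPKM rescaled without Ins1 and Ins2 (adjusted p = 0.097 and 0.23). Of 8 acyl-CoA synthetase genes, 3 rose with HG (37.5%) and 1 fell (12.5%, against 22.0% over all transcripts), and with drugs compared to HG 1 rose (Acsl6, 0.18) and 1 fell (Slc27a4, -0.12). Acsl1, which activates long-chain fatty acids, rose by 0.19 (adjusted p = 3.9e-06, SE 0.03) and averaged 29.3 FPKM in HG + drugs and 28.6 FPKM in HG. Of 12 glycerolipid genes, 1 rose and 2 fell with HG (8.33% and 16.7%, both below the shares over all transcripts), and none was called with drugs compared to HG (0 higher and 2 lower at an unadjusted p under 0.05 in limma). The 1 that rose was Lpin1, a phosphatidate phosphatase, with a log2 fold change of 0.62 (adjusted p = 2.4e-10, SE 0.07). Of 8 genes of mitochondrial fatty acid synthesis, a separate pathway, 1 rose and 3 fell with HG (12.5% and 37.5%, against 18.2% and 22.0% over all transcripts), and 1 rose with drugs compared to HG (Oxsm, 0.13). The carrier protein gene Ndufab1 rose by 0.18 (adjusted p = 1.7e-04, SE 0.04), and Hsd17b8, a reductase, was lower (log2 fold change -0.24, adjusted p = 5.5e-05, SE 0.05). In HG + drugs compared to NG, no list had more than 2 genes called higher or 2 called lower, but the lists are short. The share called higher ran from 5.88% (1 of 17 transcription factor and SREBP processing genes) to 25.0% (2 of 8 acyl-CoA synthetases, 1 of 4 supply genes). The share called lower ran from 0% to 25.0% (2 of 8 genes of mitochondrial fatty acid synthesis). Over all transcripts tested, 12.7% were higher and 14.6% lower. The list medians with HG were between -0.05 and 0.09, compared to 0.40 for the synthesis enzymes.

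**Figure D4:**
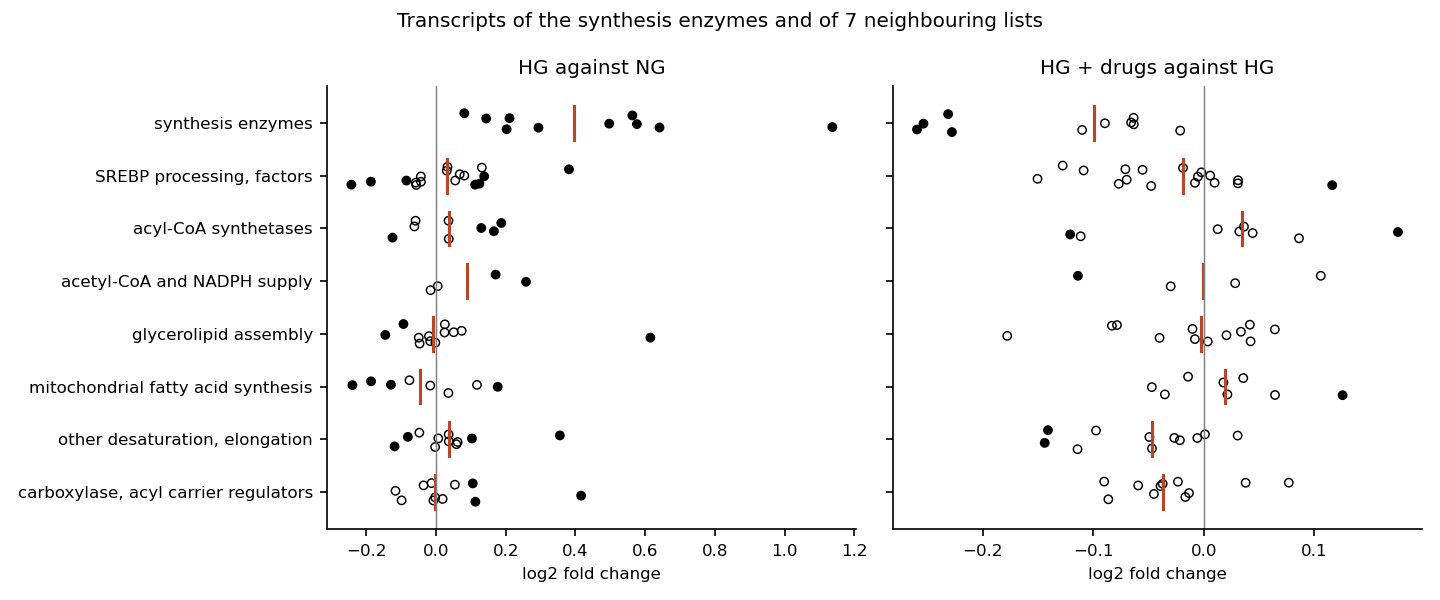
Log2 fold change (horizontal axes, which differ in range) of each tested transcript of the synthesis enzymes and of 7 neighbouring lists in HG against NG and HG + drugs against HG, filled at an adjusted p under 0.05, with the median of each list as a vertical bar. The synthesis enzymes have medians of 0.40 and -0.10, and the other list medians with HG lie between -0.05 and 0.09.

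The transcripts most like Fasn from library to library were found by the mean of its 3 within-group Pearson correlations on log2(FPKM + 1), over 20, 20 and 19 libraries. Scd came first of 10660 transcripts (mean r 0.63), followed by Coro1c (0.60), which encodes an actin-binding coronin, Limk1 (0.60), a kinase of actin regulation, Lpcat1 (0.59), a lysophosphatidylcholine acyltransferase, and Tuba1a (0.59), an α-tubulin. The 99th percentile of all transcripts was 0.42. Of the other members, Acaca ranked 32 (0.50), the longer Acly transcript 64 (0.46), Acss2 83 (0.44), Fads1 360 (0.33), the Elovl6 rows 465 (0.31) and 500 (0.30), the shorter Acly transcript 920 (0.25) and Elovl5 6566 (-0.08), and Scd1 ranked 18 (0.53). The mean hides differences between groups, as r for the longer Acly transcript was 0.82 in HG + drugs, 0.52 in HG and 0.03 in NG. Elovl5 was thus the tested enzyme that followed Fasn least. These ranks describe the libraries and depend on what they share, such as depth.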

How the data were processed

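RNA was extracted from INS-1E cells with TRIzol and RNeasy columns, and libraries were made with the Illumina TruSeq RNA kit. According to the authors' methods, reads were checked with FastQC 1.0.0 and mapped with TopHat and Bowtie to the rat build rn5 under RefSeq annotation. Cufflinks then turned them into the FPKM per transcript that the authors deposited. FPKM depends on the transcript length and on the library total, and Cufflinks divides shared reads among isoforms. The columns headed LG were taken as NG from the sample names, and no column of values was left out.

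Groups came from the sample labels. Transcripts averaging 1 FPKM or more across the 59 libraries (10660) entered a limma 3.58.1 fit (R 4.3.3, trend and robust options) on log2(FPKM + 1). It held the 3 groups together, and p-values were adjusted over all transcripts by Benjamini-Hochberg (threshold 0.05). Fold changes on this scale understate the change of low transcripts. The depth was estimated from the spacing of low FPKM, with the effective length taken as the length less 202 bases, and intervals would cover counting error only. Promoters came from RefSeq (GRCr8), and none of its coordinates were set against rn5. The fit was tested on simulated data. Alternatives were another pseudocount, filter or scaling, a replicate block, sets of 15 sample numbers as a term, sums per symbol, limma without its options, and leaving out number 13. Tables and figures were made in Python 3.11.15 with pandas 2.3.3, numpy 2.4.6 and matplotlib 3.10.9.

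The members, lists and alternatives were chosen with earlier results of these data known. Named genes were all members, the genes of a list with the lowest adjusted p per comparison (3 at most), a few regulators whatever their values (Mlxipl, Thrsp, Insig1, Scap, Me1, Slc25a1 and Scd2), and the 5 transcripts most like Fasn. Some genes that met the rule for lists were left out, such as Dgat1 and Lpin3, which fell with HG. Several values in HG + drugs against NG were left out too, such as those of Me1, Mid1ip1, Lpin1, Insig1 and Nr1h2. Scd1 was added because of how RefSeq names the rows. A planned correlation of Srebf1 with the enzymes was not run, since Srebf1 was not analysed here. A gene of the acetyl-CoA and NADPH list and an α-cell marker are not reported here, and the list was counted without that gene.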

Additional observations from a re-analysis of the deposited data

How the results depend on the processing

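No member changed direction under any of the 11 alternatives. The number of member rows that rose with HG was 8 to 10 of the 8 to 11 tested under them, and the number that fell with drugs compared to HG was 3 to 6. Whether the replicate numbers pair the libraries was not settled. The sample labels do not say that a number marks 1 experiment. The paper draws lines of individual experiments for its functional assays and also counts independent experiments for its expression data. The samples are numbered in the order NG, HG, HG + drugs. Of 58 same-numbered pairs, 38, not all, had a correlation of deviations over 0.1 (mean 0.14, lowest -0.09). Each library was also compared with all libraries of the other groups, where at most 1 per group carries its number. Of 59 libraries, 27 were closest to their own number, which points to pairing for part of them, though no chance value was computed. The block was kept as an alternative, so the main fit leaves out any pairing and calls fewer transcripts than the fit with the block. With the replicate number as a block, 2096 transcripts changed in HG + drugs against HG (1015 higher and 1081 lower) in place of 923 (445 and 478). In that fit Fasn (-0.09, adjusted p = 0.018), Scd (-0.12, adjusted p = 0.0071) and Scd1 (-0.14, adjusted p = 0.0085) passed with drugs compared to HG, and Fads1 passed in HG + drugs against NG (0.06, adjusted p = 0.022). The block changed no other member's call. Over the members and the other named genes, 786 values kept their side of the threshold under the alternatives, 22 lost a call and 7 gained one.

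With FPKM rescaled without Ins1 and Ins2, 72.4% of the calls with HG were lower against 54.7% before, and 73.3% against 53.5% in HG + drugs against NG. In the second comparison both Elovl6 rows then missed the threshold (adjusted p = 0.074 and 0.087), the cause of which was not tested. No alternative moved the median of all transcripts by over 0.1 in log2. Depth limits Elovl6 and Acacb most.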
